A study of Homo sapiens with 5 samples.

Results

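The regions described here were those where HIF1α was found on the chromatin of bronchial epithelial cells both without and with exposure to inorganic arsenic (iAs), with no Nrf2 interval at the same place. They were taken from the merged regions of a ChIP-seq study, in which antibodies pull down the DNA bound by a protein and the DNA is sequenced. A merged region was a member when it overlapped, by at least 1 bp, an interval of the HIF1α library of control cells and an interval of the HIF1α library of iAs-treated cells, and no interval of either Nrf2 library. There were 2418 such regions among 21088 merged regions (11.5%). The members were thus chosen by the presence of HIF1α and the absence of Nrf2, so neither is a finding about these regions. Another 9191 regions had HIF1α with iAs only and no Nrf2, 1606 had it in control cells only and no Nrf2, and 735 had HIF1α in both conditions together with Nrf2. The members held 2464 of the 6008 HIF1α intervals of control cells (41.0%) and 2441 of the 12826 intervals of iAs-treated cells (19.0%).

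BEAS-2B is an immortalized line derived from human bronchial epithelium. The cells were kept in serum-free medium overnight and then cultured for 6 h without iAs or with 1 μM iAs, and Nrf2 and HIF1α were each immunoprecipitated under both conditions. There was 1 library for each of these 4 groups, so no difference between conditions had a replicate check, and all confidence intervals below cover the counting of regions only. For the antibodies, the labels give Santa Cruz sc-13032 (Nrf2) and Abcam ab2185 (HIF1α), and the methods give Active Motif. The deposited intervals give a start and an end on the human genome build hg19 (GRCh37) and no height, score or read number, so the depth behind an interval is unknown. The cell type could not be checked from intervals. An input library was also sequenced and was not analysed here.

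HIF1α is the oxygen-labile subunit of the transcription factor HIF1. With oxygen present, the prolyl hydroxylases of the EGLN family mark it for degradation, and when it escapes this it pairs with ARNT and binds DNA at the core sequence ACGTG, often at genes of glucose use, lactate export and oxygen sensing. Nrf2 is held in check by KEAP1 and, once released by electrophiles or arsenic, binds the antioxidant response element at genes of glutathione and detoxification. Promoters of broadly expressed genes commonly have many CpG dinucleotides and elements for general factors such as ETS proteins, CREB and YY1.

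The sequences below show the HIF1 core within members linked to genes of glucose metabolism and of the response to low oxygen, and were chosen for holding it. Of the 40 member regions at start sites of listed HIF1 target genes, 17 (42.5%) held the core in 100 bp on each side of the midpoint. The PKM and EGLN3 stretches lie in introns, and the HIF1A stretch lies after the end of that gene. Whether HIF1 acts on these genes through the stretches was not tested. Each is a stretch of at most 30 bases of hg19, written in the direction in which the element reads, with the element in capitals.
LDHA, chr11:18416026-18416052, minus strand: ggggccggcggACGTGcgggaacccac
PGK1, chrX:77359551-77359577, minus strand: gtactagtgagACGTGcggcttccgtt
TPI1, chr12:6977241-6977267, minus strand: agtctggggctACGTGcggcggcgcac
PFKL, chr21:45719632-45719658, plus strand: agccgggccagACGTGccaccggggcc
PKM, chr15:72519206-72519232, plus strand: tgttccctcctACGTGcagacaagcac
SLC16A1, chr1:113498786-113498812, minus strand: ggtgagctgcgACGTGactggctagct
ANKRD37, chr4:186317601-186317627, plus strand: actaccgggagACGTGtcaaactcagc
EGLN3, chr14:34407685-34407711, plus strand: gtgacagggctACGTGcgctgcgtgag
HIF1A, chr14:62217879-62217905, plus strand: cacgcctcagtACGTGctcgggcgcag
WSB1, chr17:25621072-25621098, plus strand: gctgtgacgtcACGTGgccgcgcccct

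In the TPI1, PKM, EGLN3 and HIF1A stretches a T stands before the core, which gives TACGTG. In the WSB1 stretch the core lies inside CACGTG and overlaps TGACGTCA.

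The next set shows 2 other elements that were more frequent at the start sites of members than at start sites in general: AAGATGGC, which is the core bound by YY1, and TGACGTCA, which is the cyclic AMP response element (CRE) bound by CREB and ATF proteins. These examples were the 4 widest members with each element in the window around their midpoint, and they were chosen after the values were seen.
HCFC1, chrX:153237026-153237055, minus strand: gagctagtctcAAGATGGCggctcccacgg
CAMLG, chr5:134074100-134074129, plus strand: tgccctcactcAAGATGGCggccagagcct
FIZ1, chr19:56111030-56111059, minus strand: tgccctcacccAAGATGGCgcgggcctggc
NDUFS7, chr19:1383912-1383941, plus strand: aggccgaggccAAGATGGCggtgctgtcag
CCNL1, chr3:156878004-156878033, plus strand: cgcttccgcccTGACGTCAccacgccgggc
SUV39H2, chr10:14920738-14920767, plus strand: tcggccgccagTGACGTCAggacgccgtgc
UNK, chr17:73781094-73781123, plus strand: gcgcgcacgccTGACGTCAgcggccagcgt
LDHA, chr11:18416048-18416077, plus strand: gccccccccgcTGACGTCAgcatagctgtt

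The last set shows the HIF1 core in 3 members that lay far from any protein-coding start site and held TACGTG, also chosen after the values were seen.
SYNCRIP, chr6:86388702-86388728, plus strand: gacttggccctACGTGgcgcgggtgtg
BAHCC1, chr17:79319398-79319424, minus strand: cgccgccaggtACGTGcgttttccttg
PITPNM3, chr17:6410078-6410104, minus strand: agcctgtgtgtACGTGccaagctaagg

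The members lay at promoters. The midpoint of 2092 of the 2418 regions (86.5%, 95% Wilson interval 85.1 to 87.8) was within 1 kb of a start site of a protein-coding gene, 125 regions (5.17%) were at 1 to 10 kb, and 201 (8.31%) were over 10 kb away. Regions with HIF1α in iAs-treated cells only were within 1 kb of a start site in 77.7% of cases, which was 8.82 percentage points fewer than the members (Newcombe 95% interval 7.17 to 10.4). Regions with HIF1α in control cells only were there in 28.3% of cases, 58.2 points fewer (55.5 to 60.7). Regions with HIF1α in both conditions and with Nrf2 were there in 61.0% of cases, 25.6 points fewer (21.8 to 29.4), but the absence of Nrf2 was part of the rule and Nrf2 intervals have a location of their own.

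By annotation, 811 midpoints of members (33.5%) fell in a 5'-UTR, 691 (28.6%) within 3 kb upstream of a gene, 458 (18.9%) in an intron, 252 (10.4%) in a coding exon, 7 in a 3'-UTR and 199 (8.23%) outside genes. The regions with iAs only had fewer midpoints in a 5'-UTR (21.9%) and upstream (16.3%) and more in an intron (35.9%) and a coding exon (15.7%). Of the members near start sites, 321 (15.3%, 13.9 to 17) lay between or beside start sites on both strands, as at divergent gene pairs, against 9.10% (8.46 to 9.79) of the near regions with iAs only. Among the 201 far members, 77 (38.3%) were within 1 kb of the start of a noncoding transcript, so a protein-coding start site was far but a start site was not. The same held for 34.3% of the far regions with iAs only and for 8.81% of those in control cells only.

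The nearest Nrf2 interval was 93.1 kb away from a member at the median, and 64 members had one within 1 kb. At the edge of the rule, the closest Nrf2 intervals were 6 bp from the region at SHARPIN, a subunit of the linear ubiquitin ligase, 15 bp from a region upstream of SLC2A3, a glucose transporter, and 20 bp from the region at HSP90B1, a chaperone of the endoplasmic reticulum. The regions left out by the shortest Nrf2 overlaps were at GNL1 (41 bp), BCAT1 (54 bp) and CS (66 bp), which encodes citrate synthase. The shortest overlaps between the HIF1α intervals of the 2 conditions inside a member were 9 bp at PIGP, 10 bp in an intron of FOXO3 and 11 bp at HNRNPDL.

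Interval widths came from the contrast that chose the members and are given as a description, without a test. The HIF1α interval of a member was 304 bp wide in control cells at the median (range 190 to 1424) and 487 bp with iAs (188 to 2215). The ratio of iAs to control width had a median of 1.49, with quartiles of 1.08 and 2.13 and a range from 0.286 to 9.26. At a limit of 1.5-fold, 1190 members (49.2%) were wider with iAs, 97 (4.01%) were narrower and 1131 were between. The same limits gave 47.4% wider and 6.18% narrower over all 3153 regions with HIF1α in both conditions. In 1114 members the control interval lay wholly inside the iAs interval, in 167 the iAs interval lay inside the control interval, and in 1137 the intervals were staggered.

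**Figure D1:**
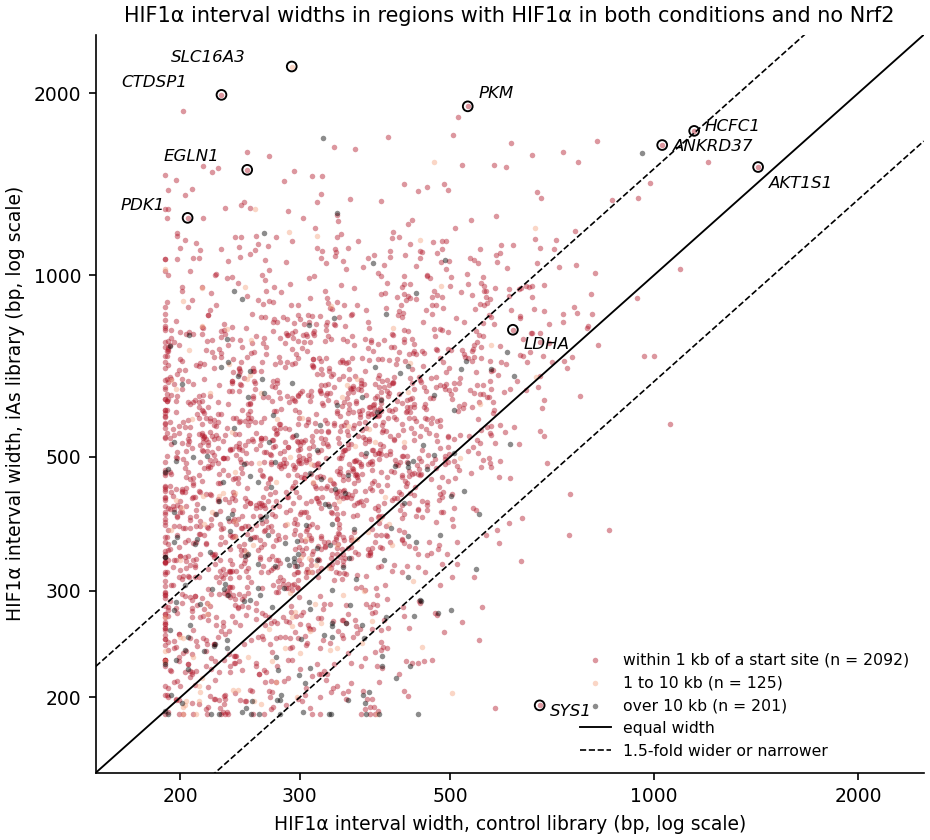
Summed width of the HIF1α intervals in each of the 2418 members, in the control library (horizontal, bp, log scale) and in the iAs library (vertical, bp, log scale), coloured by distance to the nearest protein-coding start site. Most points lie above the line of equal width, SLC16A3 and CTDSP1 are far above it, SYS1 is below the 1.5-fold line, and LDHA and AKT1S1 lie near the line of equal width.

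The widest members were at genes of many functions. The region at AKT1S1, an inhibitor of mTORC1, measured 1424 bp without iAs and 1510 bp with it. The region at HCFC1, a chromatin cofactor, went from 1146 to 1733 bp, and that at ANKRD37, a gene known to be induced by HIF1, from 1028 to 1642 bp. These were already among the widest of the control cells, and their ratios were 1.06, 1.51 and 1.60.

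Among the members of above-median summed width, 4 of the 5 largest ratios belonged to control intervals of 190 to 230 bp, and the other, at SLC16A3, to one near the median control width. The region at PPP1R3G, a glycogen-targeting subunit of protein phosphatase 1, went from 202 to 1871 bp (ratio 9.26), that at CTDSP1, a phosphatase of RNA polymerase II, from 230 to 1988 bp (8.64), and that at CUL1, the scaffold of SCF ubiquitin ligases, from 190 to 1467 bp (7.72). A region in an intron of SLC16A3, the lactate exporter MCT4, went from 292 to 2215 bp (7.59), and the region at FASTK, a regulator of mitochondrial RNA, from 197 to 1438 bp (7.3). The smallest ratios were at SYS1, a Golgi trafficking gene, from 678 to 194 bp (0.286), at TRNAU1AP, which acts in selenocysteine incorporation, from 857 to 379 bp (0.442), and at SUCLA2, a subunit of succinyl-CoA ligase, from 750 to 372 bp (0.496). MED14, a Mediator subunit, and PSPH, the last enzyme of serine synthesis, followed with ratios of 0.506 and 0.528.

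Near start sites the median width went from 307 to 502 bp and 51.3% of the members were wider with iAs. At 1 to 10 kb it went from 287 to 388 bp, and over 10 kb from 296 to 359 bp, where 32.3% were wider and 9.95% narrower. The control widths of the 3 distance classes thus lay within 20 bp of each other, and the spread between classes was in the iAs library. The lower share of wider regions far from start sites was not particular to members. Of the regions with HIF1α in both conditions and with Nrf2, 55.1% were wider and 4.24% narrower near start sites. Over 10 kb, 17.97% of the regions with Nrf2 were wider and 28.1% narrower.

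The HIF1α intervals near start sites were placed differently along the gene in the 2 libraries, which is also given as a description. In control cells the centre of the interval was 48 bp upstream of the start site at the median (quartiles 141 bp upstream and 34 bp downstream). With iAs it was 17 bp downstream (quartiles 81 bp upstream and 110 bp downstream). The iAs interval reached 121 bp farther downstream than the control interval at the median and 21 bp farther upstream. In 1420 of the 2092 near members (67.9%) the edge moved more on the downstream side than on the upstream side, in 669 more on the upstream side. The share was 68.4% with the canonical start site of each gene and 63.2% at start sites on both strands, where downstream is set by the nearer gene. Intervals of regions with iAs only were centred 105 bp downstream at the median, and those of regions in control cells only 31 bp upstream. In near regions with HIF1α in both conditions and with Nrf2, the median centre was 61.5 bp upstream in control cells and 2 bp downstream with iAs.

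**Figure D2:**
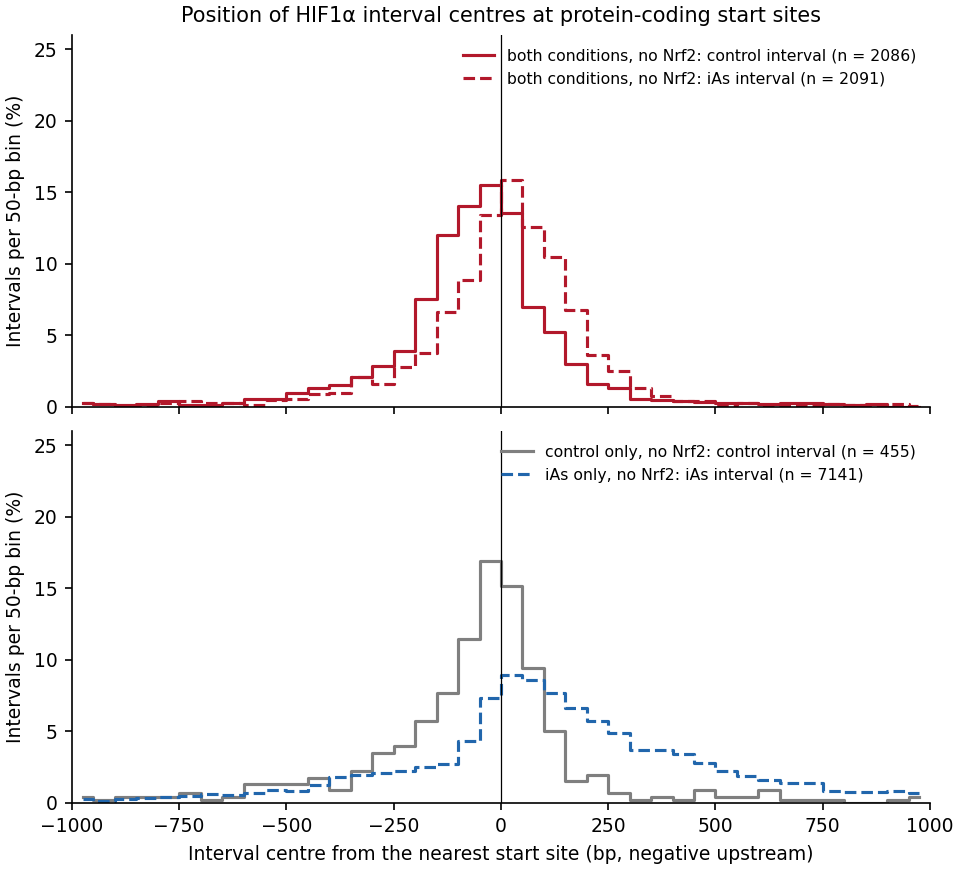
Position of HIF1α interval centres relative to the nearest protein-coding start site (horizontal, bp, negative upstream) as a percentage of intervals per 50-bp bin (vertical). The upper panel shows the members, whose median is at −48 bp in the control library and at 17 bp in the iAs library, and the lower panel shows regions with HIF1α in 1 condition only, whose medians are at −31 bp (control) and 105 bp (iAs).

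Sequence was not used directly by the rule and could be compared between classes. Elements were searched on both strands by their exact letters, where N stands for any base. ACGTG is the HIF1 core, and CACGTG and TACGTG are forms of it that contain it. TGACG is the core of the CRE and is contained in TGACGTCA. CCGGAA is the core bound by ETS factors, AAGATGGC that of YY1, CCAAT the NF-Y box, GGGCGG the GC box bound by SP1, TATAAA the TATA box and TGANTCA the AP-1 core. For promoters, the window ran from 150 bp upstream to 50 bp downstream of a start site (201 bp), so that classes were compared over the same piece of each promoter. The 2092 near members gave 2082 start sites, those with iAs only 6498, those in control cells only 451, those in both conditions with Nrf2 448, and all protein-coding genes 19744.

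The HIF1 core was present at 565 start sites of members (27.1%). It was present at 17.5% of the start sites with HIF1α with iAs only, 9.64 percentage points fewer (7.55 to 11.8), at 21.1% of those in control cells only, 6.07 points fewer (1.66 to 10.1), and at 17.3% of all protein-coding start sites, those of members included, 9.87 points fewer (7.92 to 11.9). The window was chosen after the data were seen. In the planned window of 100 bp on each side of the midpoint, the core was in 24.0% of near members and 17.9% of near regions with iAs only (difference 6.16, 4.16 to 8.23), and against the 21.1% of near regions in control cells only the interval of the difference included 0 (2.95, −1.42 to 6.92). CACGTG was present at 9.89% of the start sites of members and 6.63% of all start sites, and TACGTG at 4.37% and 2.03%. For the HIF1 core, the Wilson intervals of the iAs-only class (16.6 to 18.4%) and of all start sites (16.8 to 17.8%) overlapped. That of the members (25.3 to 29.1%) lay above both.

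Elements of general promoter factors were also more frequent at members than at start sites with iAs only. The ETS core was present at 33.4% of the start sites of members, 19.7% of those with iAs only (difference 13.8 points, 11.5 to 16.0) and 18.7% of all. The CRE core was present at 32.5%, 23.9% (difference 8.57, 6.33 to 10.9) and 23.4%, and the full TGACGTCA at 4.18%, 2.06% and 2.33%. The YY1 core was present at 185 start sites of members (8.89%), at 3.60% of those with iAs only (difference 5.28, 4.04 to 6.65) and at 3.56% of all. For the ETS, CRE and YY1 cores the start sites in control cells only, at 31.9%, 31.3% and 7.54%, had differences from the members whose intervals included 0 (−3.37 to 6.12, −3.64 to 5.79 and −1.69 to 3.81 points).

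The GC box went the other way. It was present at 66.0% of the start sites of members and 75.6% of those with iAs only (difference −9.52, −11.8 to −7.25), although at only 55.7% of all start sites. The NF-Y box was present at 26.8% of the start sites of members, 23.9% with iAs only and 28.5% of all. The TATA box was rare, at 2.64%, 2.35% and 7.12%, and so was the AP-1 core, at 1.92%, 1.82% and 3.57%. The AP-1 core was at 5.13% of start sites with HIF1α in both conditions and with Nrf2, which the rule left out. Base composition differed between the classes as well. The median GC content of the window was 68.2% for members, 73.1% with iAs only, 61.7% in control cells only and 65.7% for all, and the ratio of observed to expected CpG was 0.931, 0.918, 0.832 and 0.807. The part of base composition in the differences of element shares was not tested.

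**Figure D3:**
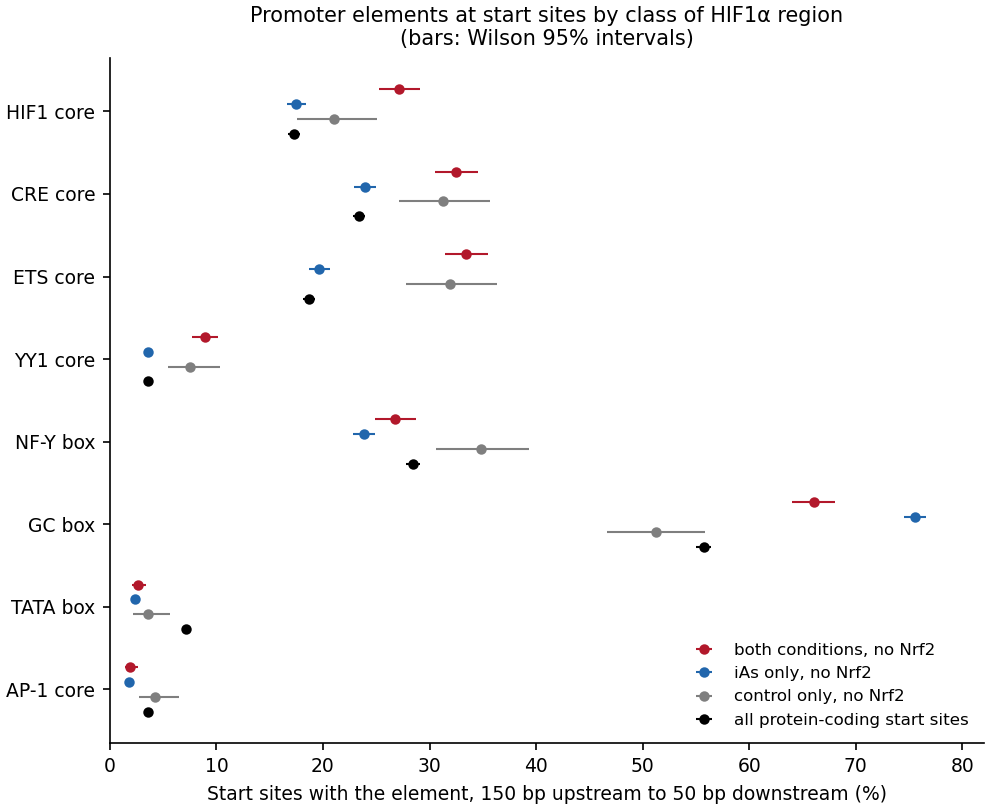
Share of protein-coding start sites (horizontal, %) with each element from 150 bp upstream to 50 bp downstream, for members, regions with iAs only, regions in control cells only, and all start sites. Points are shares and bars are 95% Wilson intervals. Members stand above the iAs-only class for the HIF1, CRE, ETS and YY1 cores (8.89% against 3.60% for YY1) and below it for the GC box (66.0% against 75.6%).

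Elements were then counted around the intervals themselves, in 100 bp on each side of a midpoint. Over all 2418 members the HIF1 core was in 608 windows (25.1%, 23.5 to 26.9), against 8.83% when the windows were moved by 5 kb to either side. The moved windows had a median GC content of 45.3%, the members' windows 68.2%. Windows of 201 bp centred on the control interval of near members held the core in 584 cases (27.9%), and those centred on the iAs interval in 489 (23.4%). For near regions with iAs only the share was 17.9%.

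The core was also concentrated at the centre. In bins of 20 bp around the control centre of near members, a mean of 3.65% of regions had the core in the bins within 40 bp, against 1.77% in the bins beyond 300 bp, a ratio of 2.06. Around the iAs centre of the same regions the values were 2.94% and 1.86%, and around the centre of near regions with iAs only 2.02% and 1.75%. The ETS core had 4.15% and 1.01% around the control centre, a ratio of 4.12, and the YY1 core 1.10% and 0.0765%, a ratio of 14.4. The YY1 core was thus less frequent than the others but the most concentrated of these 3 around the control centre. Control centres of near members had quartiles of 141 bp upstream and 34 bp downstream of the start site. The iAs centres of near members had quartiles of 81 bp upstream and 110 bp downstream, and the iAs centres of near iAs-only regions 43 bp upstream and 314 bp downstream. The part of distance to the start site in the concentration was not tested.

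The share of near members with the core was similar across interval widths. In 4 classes of nearly equal size by control width it was in 24.0%, 25%, 21.8% and 25.4% of the windows from the narrowest to the widest, and by iAs width in 24.8%, 26%, 23.1% and 22.3%, with Wilson intervals that overlapped throughout. Near members with the YY1 core were 342.5 bp wide in control cells at the median and 485.5 bp with iAs, with 38.7% wider at the 1.5-fold limit. Those without it went from 305.5 to 504 bp, with 52.3% wider. This was not particular to YY1. The share was 42.2% with and 54.8% without the CRE core, 44.7% and 53.7% for the ETS core, and 44.2% and 52.7% for the NF-Y box. The GC box (55.1% with, 46.6% without) and TACGTG (53.3% and 51.2%) went the other way. Named examples with the YY1 core were HCFC1, CAMLG, which encodes a protein of the endoplasmic reticulum membrane (765 and 1181 bp), FIZ1, a zinc finger gene (679 and 1110 bp), and NDUFS7, a subunit of respiratory complex I (648 and 961 bp). Of the examples with the full CRE, CCNL1, a cyclin that acts in splicing, went from 773 to 1537 bp and SUV39H2, a histone H3 methyltransferase, from 412 to 1177 bp, while UNK, an RNA-binding zinc finger gene, measured 736 and 721 bp.

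The 201 members over 10 kb from a protein-coding start site had the highest share of the HIF1 core. It was in 69 windows (34.3%, 28.1 to 41.1), against 19.5% of far regions with iAs only (difference 14.8 points, 8.01 to 22), 19.7% of far regions in control cells only (14.6, 7.81 to 21.8) and 8.96% of the far members' own windows moved by 5 kb. TACGTG was in 21 of them (10.4%), against 2.02% of far regions with iAs only (difference 8.43, 4.73 to 13.5) and 0.995% of the moved windows. The AP-1 core was in 19 far members (9.45%), 3.25% of far regions with iAs only and 28.1% of far regions in control cells only. The YY1 core was in none of the 201, and the GC box in 39.8%, against 53.1% with iAs only. The median GC content of these windows was 65.7% for far members, 69.7% with iAs only, 49.8% in control cells only and 47.3% for the moved windows, and its part in the shares was not tested.

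Around the control centre of far members, the core was in a mean of 4.88% of regions per bin within 40 bp and 1.79% beyond 300 bp, a ratio of 2.72. In 4 classes of nearly equal size by iAs width, from the narrowest, the core was in 48.0% (34.8 to 61.5), 36.0%, 30% and 23.5% (14.0 to 36.8) of far members. By control width the shares were 35.4%, 28.8%, 38.8% and 34.6%, with no gradient. Far members with the core had a median width of 299 bp in the control library and 301 bp in the iAs library, and those without it 291.5 and 371 bp. At the 1.5-fold limit, 20.3% of the former and 38.6% of the latter were wider with iAs. A lower share was not particular to the HIF1 core. It was 17.9% with and 35.8% without the NF-Y box, and 10.5% and 34.6% for the AP-1 core. The ETS core (44.4% with, 30.5% without), the CRE core (38.1% and 30.8%) and the GC box (36.25% and 29.8%) went the other way.

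**Figure D4:**
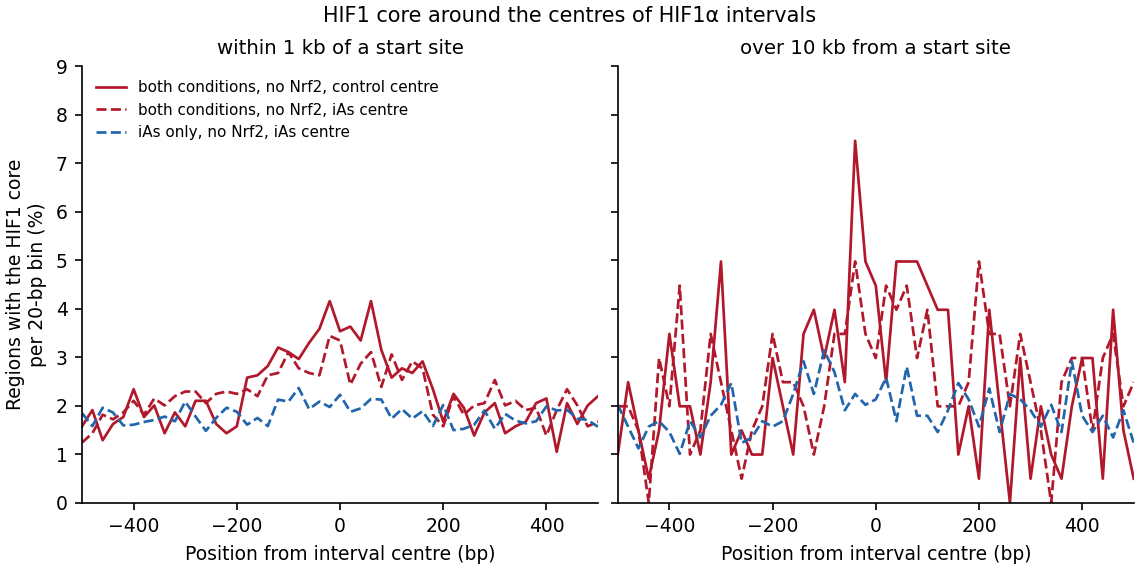
Percentage of regions with the HIF1 core ACGTG in each 20-bp bin (vertical) by distance from the centre of a HIF1α interval (horizontal, bp), for near regions (left) and regions over 10 kb from a start site (right). The control centres of near members average 3.65% within 40 bp and 1.77% beyond 300 bp, whereas the iAs-only class averages 2.02% and 1.75%, and the lines of the 201 far members are uneven because each region is 0.498% of them.

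Far members with TACGTG included one 34.9 kb upstream of the nearest start of SYNCRIP, an RNA-binding protein, which measured 606 and 746 bp, one 49.9 kb upstream of BAHCC1, a chromatin protein (292 and 664 bp), and one in an intron of PITPNM3, 49.6 kb from its nearest start (484 and 372 bp). None of the 6 widest far members, which were chosen after the values were seen, held ACGTG in its window. The region 91.2 kb upstream of CHD2, a chromatin remodeler, went from 961 to 1595 bp, that 12.2 kb beyond the start of TBX2, a developmental repressor, from 325 to 1685 bp, and that at 14.6 kb from GPR137 from 341 to 1269 bp.

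Genes were linked to a member when it lay in the gene or within 10 kb of it. This held for 3501 of 19798 protein-coding genes (17.7%), and 2417 of them (12.2%) had a member within 1 kb of a start site. An iAs-only region was within the same distance of 42.0% of genes. The counts for gene lists are read against these shares and carry no test. Of the 125 genes in the 7 lists of known HIF1 targets and oxygen response, 49 (39.2%) had a member and 38 (30.4%) had it at a start site. The higher share was not particular to members. An iAs-only region was near 85 of the 125 genes (68%) and any HIF1α interval near 110 (88%), against 42.0% and 57.9% of all genes. Of the 49 genes with a member, 19 (38.8%) also had an Nrf2 interval within 10 kb, against 22.4% over all genes with a member. In the 40 member regions at start sites of the list genes the median width went from 338.5 to 709.5 bp. Of these regions 24 (60%) were wider with iAs, against 51.3% of all near members, and 1 was narrower. The HIF1 core was in the window of 17 (42.5%), against 24.0% of all near members.

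**Figure D5:**
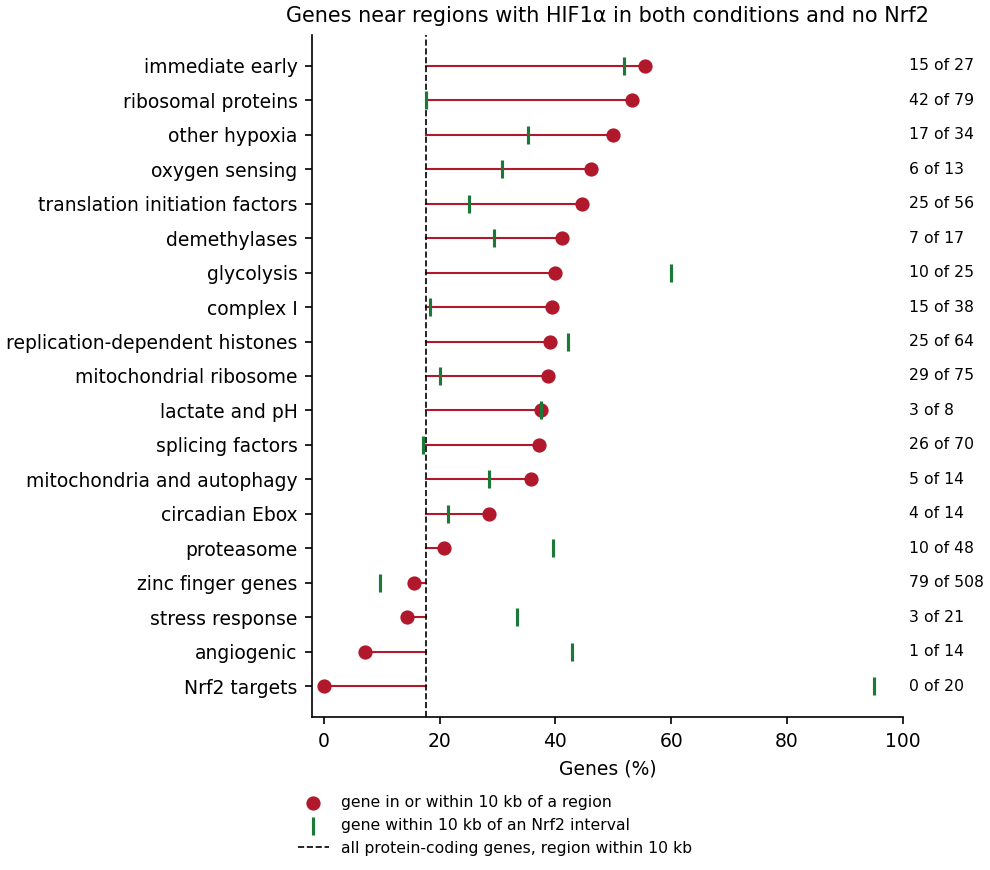
Percentage of the genes of each list (horizontal) that had a member in the gene or within 10 kb (red points, with counts at the right) or an Nrf2 interval within 10 kb (green marks). The dashed line is the share of all protein-coding genes with a member, 17.7%, and the immediate early genes (55.6%) and the ribosomal protein genes (53.2%) lie farthest to the right of it, while none of the 20 Nrf2 targets had a member.

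Genes of glucose metabolism had a member in 10 of 25 cases (40%), and 9 had it at a start site. Of these 10 genes, 5 (50%) also had an Nrf2 interval within 10 kb, against 22.4% of all genes with a member. The 5 were SLC2A3, HK1, PGK1, PKM and PDK1. Entry and early steps were represented by SLC2A3, HK1 and PFKL. SLC2A3, a glucose transporter, had a region 34.6 kb upstream of its start, not at a start site, that measured 353 bp without and 467 bp with iAs. Links used the whole annotated gene, which can reach beyond the start sites used here. Another region linked to SLC2A3 held the HIF1 core, and its widths are not given here. HK1, which phosphorylates glucose, had 210 and 429 bp. PFKL, the liver form of phosphofructokinase, had 239 and 409 bp, 314 bp upstream. Of the lower pathway, TPI1, the triose phosphate isomerase, had 494 and 1022 bp, and PGK1, the phosphoglycerate kinase that makes ATP, had 432 and 502 bp. ENO2, an enolase, had 280 and 566 bp. LDHA, which turns pyruvate to lactate, was already wide in control cells, with 619 bp, and had 812 bp with iAs. PKM, the pyruvate kinase, had a region at its start that went from 531 to 1903 bp and another in an intron of 359 and 364 bp, and the TACGTG printed above lay in the intronic one. PDK1, which blocks pyruvate from entering mitochondria, went from 205 to 1244 bp. UGP2, which makes UDP-glucose and is not a glycolytic enzyme, was the narrower one, with 347 and 203 bp. In these regions the control interval at LDHA was the widest and the iAs interval at PKM was the widest, so the order of the genes differed between the conditions.

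Oxygen sensing and HIF genes had members in 6 of 13 cases. EGLN1, the main HIF prolyl hydroxylase, had a region in a coding exon that went from 251 to 1494 bp, and another 339 bp upstream of 246 and 382 bp. EGLN3, a related hydroxylase, had only an intronic region 12.5 kb from its start, of 299 and 218 bp, which held TACGTG. HIF1AN, the asparaginyl hydroxylase of HIF1α, had 208 and 278 bp at its start. HIF1A itself had a region 55.7 kb beyond its own start site, after the end of the gene, of 263 and 394 bp, and the nearest start site was that of SNAPC1. EPAS1, which encodes HIF2α, had 202 and 251 bp in an intron.

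Lactate and pH genes had members in 3 of 8 cases. SLC16A1, the lactate carrier MCT1, had 493 and 692 bp at its start with a HIF1 core. The intronic region of SLC16A3 with 292 and 2215 bp held no ACGTG in its window. Of 14 angiogenic genes, ANGPTL4 alone had a member, 203 and 194 bp wide in an intron.

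Oxygen-dependent demethylases had members in 7 of 17 cases, of which 6 were at starts. KDM3A, a histone H3 lysine demethylase known as a HIF1 target, was the widest in both conditions, with 661 and 919 bp. KDM5B went from 265 to 773 bp, JMJD6 from 220 to 858 bp and KDM1A, a flavin-dependent demethylase, from 303 to 795 bp. The region near KDM5A (396 and 330 bp) was at the start of its neighbour CCDC77. The median of these 6 went from 316.5 to 784 bp.

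The list of other hypoxia genes had members in 17 of 34 cases (50%), and 9 of their 16 regions at starts (56.3%) held the HIF1 core. The collagen hydroxylases were represented by P4HA1 (723 and 1031 bp), P4HA2 (230 and 789 bp at its start) and PLOD2 (400 and 1040 bp). BHLHE40, a repressor of the circadian clock, had 434 and 807 bp, and MAFF, a small MAF protein, had 292 and 1141 bp. WSB1, a substrate receptor of a ubiquitin ligase, and FAM162A, a mitochondrial protein, differed less, with 372 and 417 bp and 263 and 322 bp. PPP1R3C, a glycogen-targeting subunit, had 376 and 634 bp. Mitochondrial and autophagy genes had members in 5 of 14 cases, with 488 and 719 bp at LONP1, a mitochondrial protease, 323 and 700 bp at DDIT4, an inhibitor of mTORC1, and 448 and 1376 bp at BNIP3L, a receptor for mitophagy.

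Immediate early genes, which respond to stimuli without new protein synthesis, had the highest share of the lists, with members in 15 of 27 cases (55.6%), 9 at starts. An iAs-only region was near 24 of the 27 (88.9%), against 42.0% of all genes. AP-1 subunits differed among themselves. JUN went from 303 to 1241 bp, and FOSL2 had 362 and 1620 bp at its start and 433 and 481 bp in an intron. FOS had 435 and 474 bp and JUND 259 and 368 bp. JUNB had 383 and 199 bp at its start and 441 and 312 bp upstream, so both of these were wider in control cells. A further member within 10 kb of JUNB, of larger summed width, held the HIF1 core, and its widths are not given here. MCL1, an inhibitor of apoptosis, went from 311 to 916 bp. In 2 of the 9 regions at starts the window held the HIF1 core.

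None of the 20 Nrf2 target genes had a member, while 19 of them had an Nrf2 interval within 10 kb and 17 a HIF1α interval. The rule removes regions with Nrf2, so this count is a description. Over all genes with a member, 785 (22.4%) had an Nrf2 interval within 10 kb, against 20% of all protein-coding genes. Genes of the stress response had members in 3 of 21 cases. DNAJB9, a chaperone cofactor of the endoplasmic reticulum, had 573 and 488 bp, and HSP90B1 386 and 456 bp.

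Genes of protein synthesis and of mitochondria often had members, and the examples named here were chosen after the values were seen. Of 79 genes of cytosolic ribosomal proteins, 42 (53.2%) had a member and 35 (44.3%) had it at a start site, whereas 29 (36.7%) had an iAs-only region. Any HIF1α interval was near 72 of the 79 (91.1%), against 57.9% of all genes. Of the 42, RPL35A and RPS9 had an Nrf2 interval within 10 kb. The rule left out regions with Nrf2, so this count is a description. Of all 79 genes 14 (17.7%) had an Nrf2 interval within 10 kb, against 20% of all protein-coding genes. The 35 ribosomal protein regions at starts went from 340 to 438 bp at the median, and 16 were wider and 3 narrower. Of them 9 (25.7%) held the HIF1 core and 13 the ETS core. The widest were at RPL10A (536 and 1235 bp), RPL10 (486 and 1105 bp) and RPL28 (745 and 702 bp). RPL37 (583 and 192 bp) and RPL32 (591 and 360 bp) were wider in control cells.

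Translation initiation factors had members in 25 of 56 cases (44.6%), with 337 and 1630 bp at EIF4A1, an RNA helicase, and 463 and 1398 bp at EIF4A3, a part of the exon junction complex. Subunits of respiratory complex I had members in 15 of 38 cases (39.5%), and their 11 regions at starts went from 298 to 432 bp at the median, with 3 wider. Mitochondrial ribosomal proteins had members in 29 of 75 cases (38.7%). Their 23 regions at starts went from 351 to 439 bp, with 5 wider, and MRPL12 was an exception with 216 and 1516 bp. Splicing factors had members in 26 of 70 cases (37.1%), with 2 HIF1 cores in 21 regions at starts. Of all near members 51.3% were wider with iAs, and of the 40 regions of the HIF1 target lists 60%. The share was 62.5% for the 8 proteasome regions, 52.4% for splicing factors, 50% for translation initiation factors and 49.2% for zinc finger genes. It was 45.7% for ribosomal proteins, 27.3% for complex I, 22.2% for histones and 21.7% for the mitochondrial ribosome.

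Replication-dependent histones had members in 25 of 64 cases (39.1%) but at the start of only 11, and clustered histone genes share regions. Any HIF1α interval was near 52 of the 64 (81.25%), against 57.9% of all genes. Proteasome genes had members in 10 of 48 cases (20.8%) and zinc finger genes in 79 of 508 (15.6%), both close to the 17.7% of all genes. Proteasome genes had an Nrf2 interval within 10 kb in 39.6% of cases, against 20% of all genes and 9.65% of zinc finger genes.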

How the data were processed

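ChIP-seq of Nrf2 and HIF1α was analysed in control and iAs-treated BEAS-2B cells, with 1 library per group. Per the labels and the study's methods, the authors aligned reads to hg19 with BWA, down-sampled the tags of a group to the smallest sample, called peaks with MACS (MACS2 2.1.0 in the submitters' processing notes) or SICER, and merged overlapping intervals. Which caller made each list is not given in the sources used here. The deposited values are interval positions in base pairs, with no counts, heights or scores. Track header lines were skipped, and starts were changed to 1-based.

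Members were found by overlap of at least 1 bp. The members, gene lists and motifs were chosen with earlier results of these data known, so no list is independent evidence. Start sites and features came from GENCODE release 44 on GRCh37 (basic transcripts of 19798 protein-coding genes, 55882 start sites) and sequence from the GRCh37 genome. Widths were summed per library within a region. Shares carry 95% Wilson intervals and differences of shares Newcombe intervals. No p-value was computed, since 1 library per group allows no test across samples. Python 3.11.15, NumPy 2.4.6, pysam 0.24.0 and matplotlib 3.10.9 were used, and the steps were tested on simulated data.

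The named regions were the 20 widest members, the 5 largest and 5 smallest width ratios among members above the median summed width, members in or within 10 kb of listed genes, and those nearest the edges of the rule. Text names the most informative of these, and any other region is said to have been chosen after its values were seen. Families were defined by gene symbol. The alternatives tried were the wider 50% of intervals, a reciprocal overlap of 50%, no Nrf2 within 1 kb, other start-site, gene and window distances, and merging the intervals anew. The input library was not used.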

Additional observations from a re-analysis of the deposited data

How the results depend on the processing

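With the wider 50% of each library's intervals there were 1306 members, and with a reciprocal overlap of 50% 1440, against 2418. The median width ratio of 1.49 was 1.24 with the reciprocal overlap, which admits only intervals of similar width. The share within 1 kb of a start site, 86.5%, was 89.1% with the wider intervals, 84.5% with the reciprocal overlap, 88.9% within 3 kb and 83.0% with canonical transcripts. The share with ACGTG, 25.1%, was 28.0% at the centre of the narrowest interval and 14.1% in 50 bp on each side, and that with TGANTCA, 2.69%, was 1.24% there, since the window was shorter. The 49 HIF1 target genes were 30 with the wider intervals and 28 with the reciprocal overlap. The far share of 8.31% was 5.13% when noncoding start sites were counted as well, an alternative chosen after seeing the data. Of 42 alternatives 13 moved a value beyond the limits set for it and 29 did not. The differences in the HIF1, CRE, ETS and YY1 cores and the NF-Y box between near members and near regions with iAs only kept their sign in windows at the start site and at the iAs centre, both also chosen after seeing the data. The NF-Y box difference of 5.83 points at the midpoint was 2.90 at the start site. No paired analysis was possible because each group has 1 library and no result comes from a test across samples. Unknown depth limits the widths, which depend on reads and on the caller's threshold, and a missing Nrf2 interval does not show that Nrf2 was absent.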

Other observations

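The members were spread unevenly over chromosomes. Relative to its number of protein-coding genes, chromosome 20 had the most, with 106 regions or 19.7 per 100 genes, and among the autosomes and X chromosome 4 had the fewest, with 3.84. Chromosome Y had 0. Chromosome 14 had 4.98 and chromosome X 5.45. Chromosome 20 also had 57.5 iAs-only regions per 100 genes, and chromosome 4 had 27.1.

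Genes of the circadian clock with E-box control had members in 4 of 14 cases. PER1, a repressor of the clock, went from 266 to 416 bp at a start site, in a window with CACGTG, and PER2 had 373 and 661 bp. BMAL1, the activator of the clock and a relative of the HIF1 partner ARNT, had 204 and 463 bp. The 3 regions at starts were all wider with iAs at the 1.5-fold limit, which 49.2% of all members were.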
